A study of Mus musculus with 36 samples.

Results

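Cadherins and protocadherins were followed in germ cells and supporting cells of the fetal mouse gonad. The genes described are those with a probe set of exactly 1 gene symbol made of Cdh or Pcdh and a number, and the clustered protocadherins were left out. They came to 34 of the 19938 genes with a symbol on the array, 23 of them Cdh and 11 Pcdh. Of the 34, 32 passed the filter on low values and were tested, and Cdh17 and Cdh19 stayed under it. A difference was called in at least 1 of 17 comparisons for 16 genes.

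RNA from cells sorted out of XX and XY gonads was read on Affymetrix Mouse Gene 1.0 ST arrays, which tile probes along the exons of each gene. The 36 arrays make 12 groups of 3: germ cells and supporting cells (the somatic cells that become Sertoli cells in the testis and granulosa cells in the ovary), of either sex, at 3 stages named TS13, TS24 and TS34. The labels place these stages before, during and after sexual differentiation. Germ cells of all 6 groups came from C57BL/6NJ progeny on a mixed background, with Oct4 as the reported gene. Supporting cells of the 3 XX groups and of the XY group at TS13 carried Tg(Sry-EGFP)92Ei in progeny of CD-1, with Sry as the reported gene. Supporting cells of the XY groups at TS24 and TS34 carried Tg(Sox9-cre/ERT2)1Msan/J in progeny of C57BL/6, with Sox9 as the reported gene. For these last groups sex, stage and mouse line cannot be told apart, and the same holds for cell type and line between germ and supporting cells. Gonads were pooled by sex before sorting. Whether the 3 arrays of a group come from 3 pools is not stated, so p-values measure only how far these arrays scatter, and that scatter may be technical.

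Cadherins are calcium-dependent adhesion receptors whose outer repeats bind cadherins on the neighbouring cell. The classical members (E-, N- and P-cadherin and the type II cadherins) hold catenins at their inner end, which tie the junction to actin, while protocadherins have other inner ends. In the fetal gonad, E-cadherin is known as a surface protein of migrating and newly settled germ cells, and N-cadherin as one of the adhesion proteins of the somatic cells around them.

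The sort held on 35 of 36 arrays. Pou5f1, the Oct4 gene, had group means of 9.98 to 11.46 (log2) in germ cells and of 5.16 to 5.64 in supporting cells, and the somatic factor Wt1 had means of 7.46 to 7.69 and of 10.87 to 11.63. The exception was replicate 3 of germ XX TS24, a library that went against its label, with Pou5f1 at 5.07, the germ cell helicase Ddx4 at 5.04, Wt1 at 11.19 and the stromal receptor gene Pdgfra at 10.60. It correlated with the other 2 arrays of its group at r of 0.8949 and 0.9016 over the 19938 genes with a symbol, where all other pairs within a group lay between 0.9671 and 0.9948. It was left out, so germ XX TS24 has 2 arrays. On germ XX TS24 replicate 2 the somatic genes Wt1 (8.19), Nr2f2 (8.12) and Dcn (7.99) were above replicate 1 (7.18, 6.45 and 7.19). On supporting XX TS24 replicate 1 the germ cell genes Dazl (6.70) and Ddx4 (6.56) were above replicate 2 (4.74 and 4.84). The same held on supporting XX TS34 replicate 1 (6.45 and 6.75) against its replicate 2 (5.34 and 5.67). Of the defining markers of supporting cells, Sox9 was high in XY groups from TS13 (11.03 to 11.70), Amh was high in XY groups at TS24 and TS34 (10.00 and 9.84) but not at TS13 (6.10), and Foxl2, a marker of granulosa cells, stayed at 6.21 to 6.36 in the XX supporting groups, against 5.99 to 6.43 in germ cells. Fst, on the same marker list, was high in the XX supporting groups, with means of 11.43, 12.24 and 11.96 at the 3 stages in order. Its means were 7.94, 6.75 and 6.65 in XY supporting cells and 6.73 to 7.13 in germ cells. In sorted populations, fewer cells of a type and less RNA per cell cannot be told apart.

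All values are log2 expression, and levels are compared only within a gene, because probes of different genes differ in response. Each difference is given ± its standard error (SE), and a difference was called at an adjusted p under 0.05 in limma, adjusted over the 17571 genes tested. Each group mean rests on n = 3 arrays, or n = 2 for germ XX TS24.

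**Figure D1:**
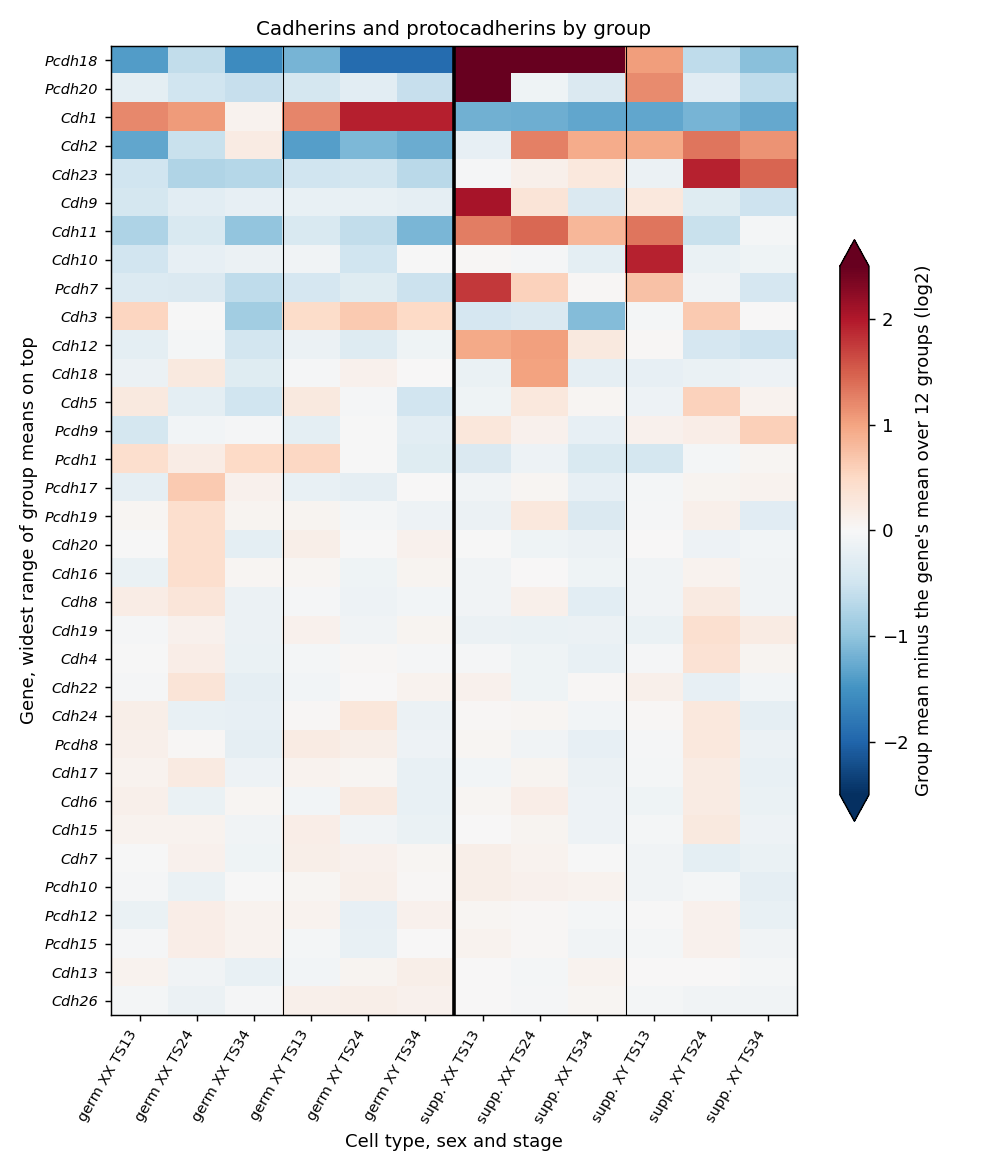
Group mean minus the gene's own mean over 12 groups (log2, colour) for all 34 cadherin and protocadherin genes, ordered by the range of their group means. The colour scale ends at 2.5, which Pcdh18 passed in the 3 XX supporting groups and Pcdh20 in XX supporting cells at TS13; the lower rows are nearly uncoloured.

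Germ and supporting cells differed in some cadherins when stages and sexes were averaged. Of the 32 tested genes, 3 were higher in germ cells (Cdh1, Pcdh1 and Cdh3) and 11 were lower (Pcdh18, Cdh2, Cdh11, Cdh23, Pcdh20, Pcdh7, Cdh9, Cdh10, Cdh12, Pcdh9 and Cdh5), with stages and sexes averaged and n = 17 germ and 18 supporting arrays. Over all genes tested, 53.2% were called in this comparison, 32.9% higher and 20.3% lower. That is 5785 genes higher and 3560 lower, against 4741 and 4710 with quantile normalization, under which the cadherins still split into 3 and 11. The median difference was -0.01 over the tested cadherins and 0.08 over all genes. A share of 43.8% of cadherins called is therefore not above that of the array, and the result lies in which genes differed and by how much. Cdh12, Pcdh20 and Cdh9 exceeded the 25th percentile of their array on 7, 9 and 12 of 35 arrays, so they entered the tests mainly through the groups where they were high.

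Cdh1 encodes E-cadherin, the classical cadherin of epithelia. It ran from 7.21 to 9.58 in germ cells (median 8.66) and from 5.79 to 6.51 in supporting cells (median 6.10). The ranges did not overlap, and germ cells were higher by 2.48 ± 0.08, or 5.59-fold (adjusted p = 1.58e-31). In supporting cells the 6 group means of Cdh1 lay within 6.06 to 6.20, and no sex or stage comparison called it there.

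Cdh2 encodes N-cadherin, the classical cadherin of neural and many mesenchymal cells. It ran from 6.23 to 8.31 in germ cells (median 6.71) and from 7.53 to 9.59 in supporting cells (median 8.96), and was lower in germ cells at -1.80 ± 0.08 (adjusted p = 3.55e-26). The ranges overlapped through 2 groups: XX germ cells at TS34, with 8.0, 8.31 and 8.03, and XX supporting cells at TS13, with 7.53, 7.82 and 7.74. Of the other genes lower in germ cells, Pcdh18 had the largest difference, at -2.86 ± 0.11 (7.28-fold, adjusted p = 2.88e-28). It was followed by the type II cadherin Cdh11 at -1.43 ± 0.12 and by Cdh23, known from the tip links of hair cells, at -1.20 ± 0.09. The remaining differences were within 1 log2 unit, from -0.87 ± 0.10 for Pcdh20 and -0.87 ± 0.09 for Pcdh7 to -0.25 ± 0.10 for Cdh5. Cdh5, the cadherin of endothelial junctions, is the least firm of them: leaving out 1 of 16 arrays in turn put its adjusted p between 0.0523 and 0.0806. With the library of somatic profile kept, Cdh5 (-0.18, adjusted p = 0.25) and Cdh12 (-0.32, adjusted p = 0.163) were not called and the other 12 genes were. For Pcdh20, Cdh10 and Cdh9 the averaged difference rested mainly on supporting groups of TS13. Supporting means of Pcdh20 were 8.17 (XX) and 6.57 (XY) at TS13 and 4.75 to 5.28 later. Its germ means were 4.80 to 5.13. Cdh10 was at 7.43 in XY supporting cells at TS13 and 5.26 to 5.53 in the other supporting groups. Its germ means were 5.01 to 5.49. Cdh9 was at 7.50 in XX supporting cells at TS13, 4.92 to 5.76 in the other supporting groups and at most 5.26 in germ groups.

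Catenins and other junction partners of cadherins, nectins among them, were called in both directions. Of 20 catenins and junction partners, 6 were higher and 9 lower in germ cells (median -0.04), where 32.9% of all genes were higher and 20.3% lower. Jup (plakoglobin) was lower at -1.74 ± 0.09, the alpha-catenin relative Ctnnal1 at -1.63 ± 0.10, Ctnnd1 (p120-catenin) at -1.55 ± 0.10 and the alpha-catenin Ctnna3 at -1.33 ± 0.09. Ctnnb1 (beta-catenin), which binds classical cadherins directly, differed by -0.06 ± 0.10 (adjusted p = 0.683, 95% interval -0.26 to 0.15) and was not called. Among the higher genes were Pkp4 at 0.82 ± 0.09, Arvcf at 0.76 ± 0.08 and Afdn (afadin) at 0.52 ± 0.08. Of 22 tested desmosomal and atypical cadherins, 2 were higher and 8 lower (median 0.01), led by desmocollin Dsc2 at -2.59 ± 0.09 and the giant cadherin Fat4 at -2.17 ± 0.10. Of 7 known repressors of E-cadherin transcription, Snai2 (-1.75 ± 0.12), Zeb2 (-1.26 ± 0.09) and Zeb1 (-0.94 ± 0.10) were lower in germ cells.

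At TS34 XX and XY germ cells differed in E-, P- and N-cadherin (Cdh1, Cdh3 and Cdh2), and no type II cadherin was called between them at any stage. At TS13 a difference between the sexes was called for 0 of 32 cadherins by limma (0 also at an unadjusted p under 0.05), with 0.0285% of all genes called. At TS24 it was called for 3 (1.96% of all genes) and at TS34 for 4 (12.5% of the 32, near the 10.5% of all genes). XX and XY germ cells came from mice of the same description at each stage.

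Cdh1 stood at 8.73, 8.59 and 8.34 in XX and at 8.73, 8.66 and 8.34 in XY germ cells at TS13. At TS24 it stood at 8.44 and 8.40 in XX and at 9.47, 9.27 and 9.16 in XY. At TS34 it stood at 7.74, 7.36 and 7.21 in XX and at 8.96, 9.34 and 9.58 in XY. The sexes thus overlapped fully at TS13 and did not overlap at TS24 or TS34. XY minus XX was 0.88 ± 0.22 at TS24 (adjusted p = 0.0174) and 1.86 ± 0.19 at TS34 (3.62-fold, adjusted p = 3.68e-10). The TS24 value has little room: it was 0.79 to 0.90, with an adjusted p of 0.0538 to 0.231, without XX replicate 1, XX replicate 2, XY replicate 1 or XY replicate 2. Cdh1 fell in XX germ cells from TS24 to TS34 by 0.98 on the log2 scale (-0.98 ± 0.22, adjusted p = 0.00226). In XY germ cells it rose from TS13 to TS24 by 0.72 ± 0.19 (adjusted p = 0.0377), and this call was lost without any 1 of the 6 arrays compared, at 0.60 to 0.80 with an adjusted p of 0.0513 to 0.271.

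Cdh3 encodes P-cadherin, and it is the protein-coding neighbour of Cdh1 on chromosome 8. At TS34 it stood at 8.35, 7.35 and 7.44 in XX germ cells and at 8.89, 8.91 and 9.46 in XY, with no overlap. XY minus XX was 1.37 ± 0.23 (2.59-fold, adjusted p = 2.28e-05). From TS24 (8.61 and 8.55) to TS34, XX germ cells fell, at -0.87 ± 0.26 (adjusted p = 0.0269). With quantile normalization it was -0.68 (adjusted p = 0.0728), and it also lost its call, at -0.69 to -0.90, without either XX TS24 array or without XX TS34 replicate 2 or 3.

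Cdh2 moved the opposite way. It stood at 6.54, 6.62 and 6.65 in XX germ cells at TS13, at 7.41 and 7.32 at TS24 and at 8.0, 8.31 and 8.03 at TS34. In XY germ cells it stood at 6.74, 6.23 and 6.61, then at 6.70, 6.79 and 6.88, then at 6.71, 6.73 and 6.58. XX arrays at TS24 and TS34 all lay above every XY germ cell array. XY minus XX at TS34 was -1.44 ± 0.19 (2.71-fold, adjusted p = 1.19e-07). The step from TS24 to TS34 in XX was 0.75 ± 0.21 (adjusted p = 0.0183), and it missed the threshold at 0.65 to 0.79 without XX TS24 replicate 1 or 2 or XX TS34 replicate 2 (adjusted p of 0.0629 to 0.127). Between XX and XY germ cells at TS34, 0 of 6 interstitial and 0 of 8 supporting cell markers were called by limma (0 of each also at an unadjusted p under 0.05), and Wt1 averaged 7.51 in XX and 7.46 in XY. Whether somatic cells had a part in the Cdh2 difference was not tested.

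The change of the germ cell sex difference between TS13 and TS34 (the TS34 value less the TS13 value) was itself tested, and was called for these 3 genes alone among the 32: 1.83 ± 0.27 for Cdh1 (adjusted p = 1.07e-05), 1.46 ± 0.33 for Cdh3 (adjusted p = 0.00418) and -1.36 ± 0.27 for Cdh2 (adjusted p = 7.73e-04). Of all genes, 3.69% were called in this comparison, 1.82% higher and 1.87% lower. Pcdh1 was at -0.90 ± 0.28 (adjusted p = 0.054). With median centring, with quantile normalization or with a variance trend in limma it was called as a 4th gene, which gave 2 higher and 2 lower.

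Pcdh1, a protocadherin of the delta subfamily, was the remaining call at TS34. It stood at 6.64, 6.35 and 6.28 in XX and at 5.50, 5.80 and 5.58 in XY germ cells, which did not overlap, and the difference was -0.80 ± 0.20 (adjusted p = 0.00357). Of 6 germ cell markers, 3 were called in the same comparison, all higher in XY: Pou5f1 was higher in XY by 0.91 ± 0.25, Dnd1 by 0.94 ± 0.24 and Nanos3 by 1.84 ± 0.22. Dppa3 (0.66 ± 0.25), Dazl (-0.32 ± 0.27) and Ddx4 (-0.26 ± 0.27) were not called. Of 8 mesonephric markers, Lhx1 and the epithelial adhesion gene Epcam, which germ cells express, were higher in XY, Epcam by 0.85 ± 0.22, and of 3 Schwann and neural crest markers Erbb3 was higher. Their part in the cadherin differences was not tested. Among junction partners at TS34, plakophilin Pkp2 (1.02 ± 0.22) and Afdn (0.63 ± 0.20) were higher in XY and Ctnnal1 (-1.08 ± 0.23) and Pkp4 (-0.69 ± 0.21) lower, 4 of 20 in all. Of the desmosomal and atypical cadherins, 2 of 22 were higher, the atypical cadherin Fat1 (0.89 ± 0.20) and the receptor tyrosine kinase gene Ret (0.78 ± 0.21), whose product has cadherin-like repeats. Of the 7 E-cadherin repressors, limma called 0 between the sexes of germ cells at any stage (1 at an unadjusted p under 0.05, at TS24).

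At TS24 the other calls were of protocadherins. Pcdh17 stood at 8.05 and 8.02 in XX germ cells and at 7.15, 7.01 and 7.29 in XY, a difference of -0.88 ± 0.21 (adjusted p = 0.0127). It was also the 1 cadherin called in XX germ cells from TS13 (7.41, 6.77 and 7.27) to TS24, where it rose by 0.88 ± 0.21 (adjusted p = 0.0165, with 1.21% of all genes called). Cdh2 was higher at TS24 on every array over the same step (0.76 ± 0.21) but missed the threshold (adjusted p = 0.0524). With the mean over probe sets Cdh2 was called beside Pcdh17, and with all 36 arrays Cdh2 and Pcdh18 were called and Pcdh17 was not. Both calls of Pcdh17 were lost without either XX TS24 array (adjusted p of 0.0834 to 0.161), the first also without XY replicate 2 (0.0787) and the second also without XX TS13 replicate 2 (0.151). Pcdh18 stood at 6.28 and 8.18 in XX and at 6.09, 5.61 and 6.09 in XY, and its difference of -1.30 ± 0.30 (adjusted p = 0.00903) rested on the array at 8.18, XX replicate 2. Without that array it was -0.35 (adjusted p = 0.708), and without XX replicate 1 it was -2.25. Without XY replicate 2 it was -1.14 (adjusted p = 0.0885). The same array had raised Wt1, Nr2f2 and Dcn, as given above, and Cdh11 at 7.81 against 6.42 on replicate 1. The change of Pcdh18 from TS24 to TS34 in XX germ cells was -0.96 ± 0.30 with that array and -0.00 without it. Without XX TS24 replicate 1 it was -1.91. Its call was also lost with quantile normalization (-0.82, adjusted p = 0.0675), with median centring (-0.82, adjusted p = 0.0665) and without XX TS34 replicate 2 (adjusted p = 0.119) or 3 (adjusted p = 0.136).

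From TS24 to TS34 in XX germ cells, 4 cadherins were called (Cdh1, Cdh3 and Pcdh18 lower, Cdh2 higher) beside 8.88% of all genes. Over all genes 327 were higher and 1233 lower as deposited, 717 and 997 with median centring, and 798 and 823 with quantile normalization. Markers of several cell types were lower in the same step, and none of the marker lists had a higher call. Of 6 germ cell markers, Nanos3 (-1.18 ± 0.24) and Dnd1 (-1.12 ± 0.27) were lower. Of 6 interstitial markers, Dcn was lower (-1.31 ± 0.31), with a summed level of 9.61 to 10.27 at TS24 and 9.15 to 9.87 at TS34. Of 9 endothelial markers, Pecam1 (-1.02 ± 0.26) and Tie1 (-0.88 ± 0.22) were lower, with a summed level of 11.04 to 11.46 and then of 10.17 to 10.56. Pecam1 was high in the germ groups themselves, with means of 9.23 to 10.78, against 6.72 to 6.93 in supporting cells. On the left-out library it was at 7.19. Also lower were Epcam and Lhx1 (2 of 8 mesonephric markers), Hbb-y (1 of 3 erythroid), Erbb3 (1 of 3 Schwann and neural crest) and Sox9 (1 of 8 supporting cell markers). Their part in the cadherin changes was not tested. With the left-out library kept, Cdh1 (-0.20, adjusted p = 0.688) and Cdh2 (0.44, adjusted p = 0.145) were not called in this step, Cdh3 was at -1.03 and Pcdh18 at -2.53. With it kept, XY minus XX at TS24 was 1.66 for Cdh1, -2.87 for Pcdh18 and -0.57 for Pcdh17 (adjusted p = 0.102), and the rise of Pcdh17 was 0.57 (adjusted p = 0.153). Leaving out XX TS34 replicate 1 gave 8 calls, leaving out XX TS34 replicate 3 gave 2, and leaving out XX TS24 replicate 2 or XX TS34 replicate 2 gave 1. In XY germ cells, Cdh1 alone was called from TS13 to TS24 (1.50% of all genes), and 0 cadherins by limma from TS24 to TS34 (1 at an unadjusted p under 0.05, with 2.73% of all genes called).

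**Figure D2:**
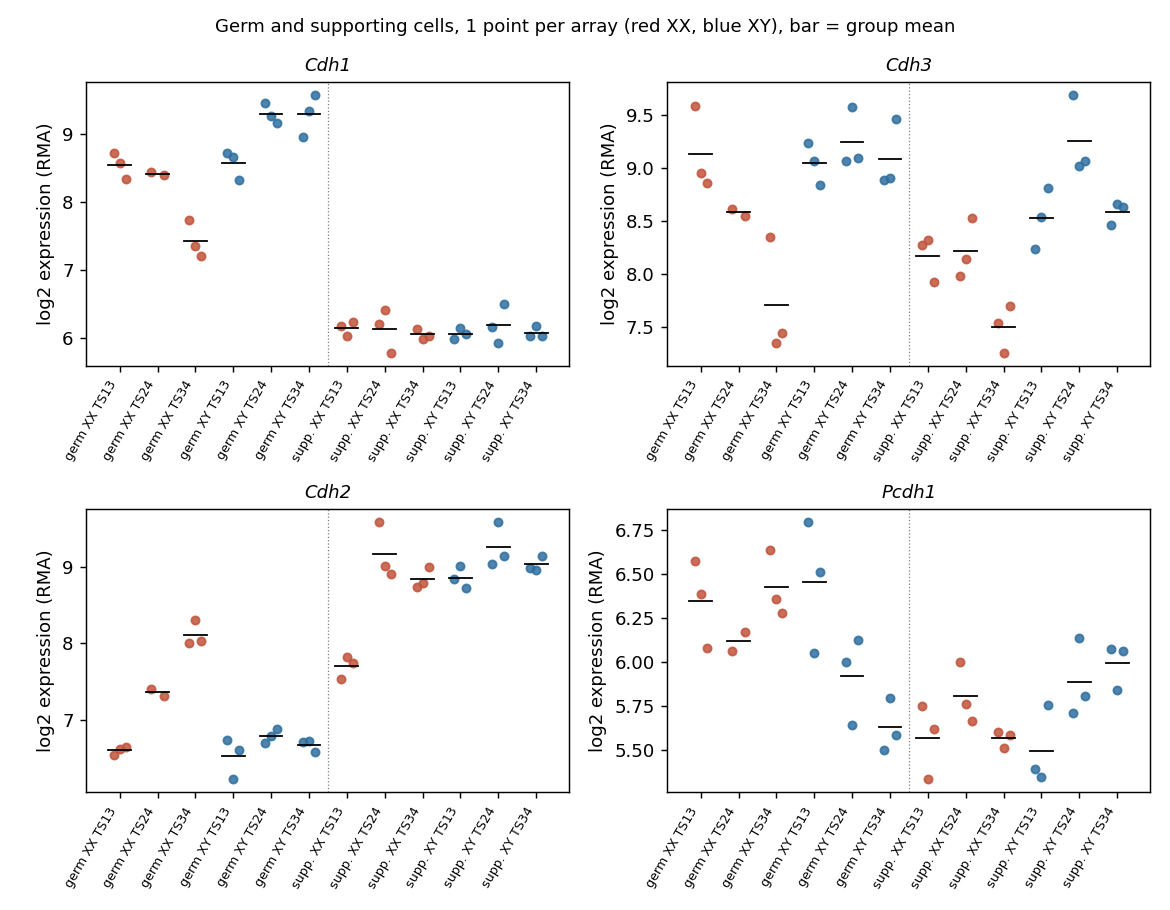
log2 expression of Cdh1, Cdh3, Cdh2 and Pcdh1 on each of the 35 arrays by cell type, sex and stage (red XX, blue XY; bars are group means). Cdh1 in XX germ cells at TS34, at 7.21 to 7.74, lies below the other germ groups and above all supporting arrays, while Cdh2 in the same cells, at 8.0 to 8.31, lies above the other germ groups.

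Supporting cells differed between the sexes already at TS13. There 6 of 32 cadherins were called (3.78% of all genes): Pcdh18, Cdh9, Pcdh20 and Pcdh7 were higher in XX, and Cdh2 and Cdh10 higher in XY. At this stage both sexes carried the same Sry-EGFP line. The number was 8 at TS24 (15.3% of all genes) and 5 at TS34 (14.0% of all genes), where the lines differed.

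Of the 32 tested genes, 3 were high in XX supporting cells at TS13 and lower at every later stage: Pcdh20, Pcdh7 and the type II cadherin Cdh9. Pcdh18 stayed high in XX cells throughout and is described after them. Pcdh11x, whose symbol ends in a letter, is counted with the desmosomal and atypical cadherins and took a similar course. Its means at the 3 stages in order were 9.41, 7.06 and 5.97 in XX supporting cells and 8.1, 5.92 and 5.06 in XY. Upstream sequences are shown for Pcdh20, Pcdh7, Cdh9 and Pcdh18. These are the 4 of the 32 that were lower in XY than in XX supporting cells at TS13. Of the 34 genes, 22 have a promoter in the RefSeq table of GRCm38.p6, with 25 promoters among them. Each stretch holds the 250 bases before the annotated start of transcription, 5′ to 3′ on the gene's strand, with CG pairs in capitals. Pcdh20 lies at chr14:88471397-88471646 (minus strand), Pcdh7 at chr5:57717831-57718080 (plus strand), Cdh9 at chr15:16728665-16728914 (plus strand) and Pcdh18 at chr3:49757317-49757566 (minus strand).

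Pcdh20: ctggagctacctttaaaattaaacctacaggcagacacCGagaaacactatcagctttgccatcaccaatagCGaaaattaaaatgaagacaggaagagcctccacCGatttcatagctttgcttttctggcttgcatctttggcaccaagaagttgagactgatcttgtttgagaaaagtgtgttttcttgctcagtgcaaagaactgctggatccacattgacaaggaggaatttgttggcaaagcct
Pcdh7: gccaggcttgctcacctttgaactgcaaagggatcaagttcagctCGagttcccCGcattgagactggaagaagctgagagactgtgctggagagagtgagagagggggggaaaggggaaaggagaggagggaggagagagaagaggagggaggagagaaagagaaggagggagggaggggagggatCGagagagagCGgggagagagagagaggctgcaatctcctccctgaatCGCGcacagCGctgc
Cdh9: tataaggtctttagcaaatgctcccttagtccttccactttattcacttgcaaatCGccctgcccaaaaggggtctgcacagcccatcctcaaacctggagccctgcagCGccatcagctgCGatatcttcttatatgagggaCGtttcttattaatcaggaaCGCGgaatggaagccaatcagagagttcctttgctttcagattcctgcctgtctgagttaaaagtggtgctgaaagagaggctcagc
Pcdh18: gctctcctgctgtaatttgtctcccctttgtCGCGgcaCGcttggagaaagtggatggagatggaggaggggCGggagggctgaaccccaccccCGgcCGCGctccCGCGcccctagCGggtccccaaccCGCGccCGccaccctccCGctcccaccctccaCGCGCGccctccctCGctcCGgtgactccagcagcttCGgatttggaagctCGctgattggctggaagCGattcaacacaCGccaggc

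The stretch of Pcdh18 holds 23 CG pairs and is 68% G and C, that of Pcdh7 holds 7 and is 58.4% G and C, that of Cdh9 holds 6 and is 48% and that of Pcdh20 holds 3 and is 42.4%. Over the same 250 bases of all 32851 promoters in the table the median is 6 CG pairs, and 88% have 23 or fewer, 57% have 7 or fewer, 53.7% have 6 or fewer and 37.8% have 3 or fewer. The 4 genes therefore do not share a CG content in this window. Motifs were searched on both strands: AACAAT (SOX factors) is in 9.42% of all promoters, AGATAA, a motif of GATA factors, in 9.99%, AAGGTCA (NR5A factors) in 4.08% and the E-box CAGGTG in 17.2%. None of the 4 motifs is in the 4 stretches shown. Among the 25 promoters of the family, 0 hold AACAAT, 1 holds AGATAA (Cdh7), 1 holds AAGGTCA (Cdh18) and 3 hold CAGGTG (Cdh7 and Pcdh15).

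Pcdh20, a protocadherin expressed in the nervous system, stood at 7.76, 8.49 and 8.27 in XX supporting cells at TS13 and at 7.19, 6.73 and 5.79 in XY. At TS24 it stood at 5.45, 5.11 and 5.28 in XX and at 5.49, 4.98 and 4.84 in XY, and at TS34 all 6 arrays were at 4.63 to 5.15. At TS13 the sexes did not overlap, and later arrays lay in the range of germ cells (4.55 to 5.54). XY minus XX at TS13 was -1.60 ± 0.24 (3.04-fold, adjusted p = 5.03e-06). From TS13 to TS24 Pcdh20 fell in XX (-2.89 ± 0.24, 7.42-fold, adjusted p = 1.70e-12) and in XY (-1.47 ± 0.24, adjusted p = 9.08e-06). Its next protein-coding neighbour, Pcdh9, was not called over that step in either sex on the probe set used.

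Cdh9 stood at 7.50, 7.80 and 7.21 in XX supporting cells at TS13 and at 5.72, 5.71 and 5.69 in XY, a difference of -1.80 ± 0.22 (3.48-fold, adjusted p = 5.84e-08) with no overlap. At TS24 the XX arrays were at 6.32, 5.32 and 5.63, lower than at TS13 (-1.75 ± 0.22, adjusted p = 1.38e-07), and at TS34 they were at 5.19, 4.93 and 5.09. XY minus XX at TS24 was -0.63 ± 0.22 (adjusted p = 0.0463), with overlapping arrays. That call was lost with a replicate block (adjusted p = 0.0523), and without XX replicate 1 (-0.34), XX replicate 3 (-0.69), XY replicate 1 (-0.53) or XY replicate 3 (-0.56).

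Pcdh7, a protocadherin of the delta subfamily, stood at 7.24, 8.35 and 7.50 in XX at TS13 and at 6.76, 6.85 and 6.37 in XY. The sexes did not overlap, and the difference was -1.04 ± 0.22 (adjusted p = 0.00149), or -0.71 (adjusted p = 0.0982) without XX replicate 2. It fell from TS13 to TS24 in XX (-1.17 ± 0.22, adjusted p = 3.38e-04) and in XY (-0.81 ± 0.22, adjusted p = 0.00722), and the latter was -0.63 (adjusted p = 0.0661) without XY TS24 replicate 2. At TS24 XX stood at 6.72, 6.22 and 6.63 and XY at 6.20, 5.50 and 5.85. That difference, -0.67 ± 0.22 (adjusted p = 0.0288), lost its call without XX replicate 1 (-0.57), XX replicate 3 (-0.62), XY replicate 2 (-0.50) or XY replicate 3 (-0.67). Between TS24 and TS34 limma called 0 of 32 cadherins in XX supporting cells (8 at an unadjusted p under 0.05, with 0.643% of all genes called) and 0 in XY (5 at an unadjusted p under 0.05, with 1.06% of all genes called). In XX, 1 was called without TS24 replicate 1 or without TS24 replicate 3.

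Cdh2 and Cdh10 were the cadherins higher in XY at TS13. Cdh2 stood at 7.53, 7.82 and 7.74 in XX supporting cells and at 8.84, 9.01 and 8.71 in XY, a difference of 1.16 ± 0.19 (2.23-fold, adjusted p = 2.02e-05). By TS24 the XX arrays were at 9.59, 9.01 and 8.91, a rise of 1.47 ± 0.19 (adjusted p = 1.43e-07), and overlapped XY at 9.03, 9.58 and 9.14. Cdh10, a type II cadherin next to Cdh9 on chromosome 15, stood at 8.53, 7.65 and 6.12 in XY at TS13 and at 5.31, 5.72 and 5.55 in XX. The 3 XY arrays spread over more than 2 log2 units but all lay above XX, and the difference was 1.91 ± 0.29 (3.75-fold, adjusted p = 5.11e-06). It was 1.36 to 2.56 with any 1 array left out and kept its call. At TS24 the XY arrays were at 5.0, 5.59 and 5.44, lower than at TS13 (-2.09 ± 0.29, adjusted p = 2.35e-07), and no array of the other 11 groups reached 6. The neighbours on chromosome 15, Cdh9 and Cdh10, were thus each high in 1 sex of supporting cells at TS13.

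Other somatic markers moved in the same TS13 comparison. Pdgfra was higher in XY by 1.80 ± 0.25 and Nr2f2 lower (-1.13 ± 0.27), which made 1 higher and 1 lower of 6 interstitial markers. The summed level of those markers was 10.57 to 10.67 in XX and 10.68 to 10.83 in XY. Lhx9, the 1 of 4 surface epithelium markers called, was lower in XY (-1.65 ± 0.26). So was Emx2 (-0.97 ± 0.22), the 1 of 8 mesonephric markers called (median -0.07). The steroidogenic enzyme gene Cyp11a1 (-0.97 ± 0.23) was the 1 of 4 steroidogenic markers called, with a median of 0.13 over the 4. Their part in the cadherin differences was not tested.

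**Figure D3:**
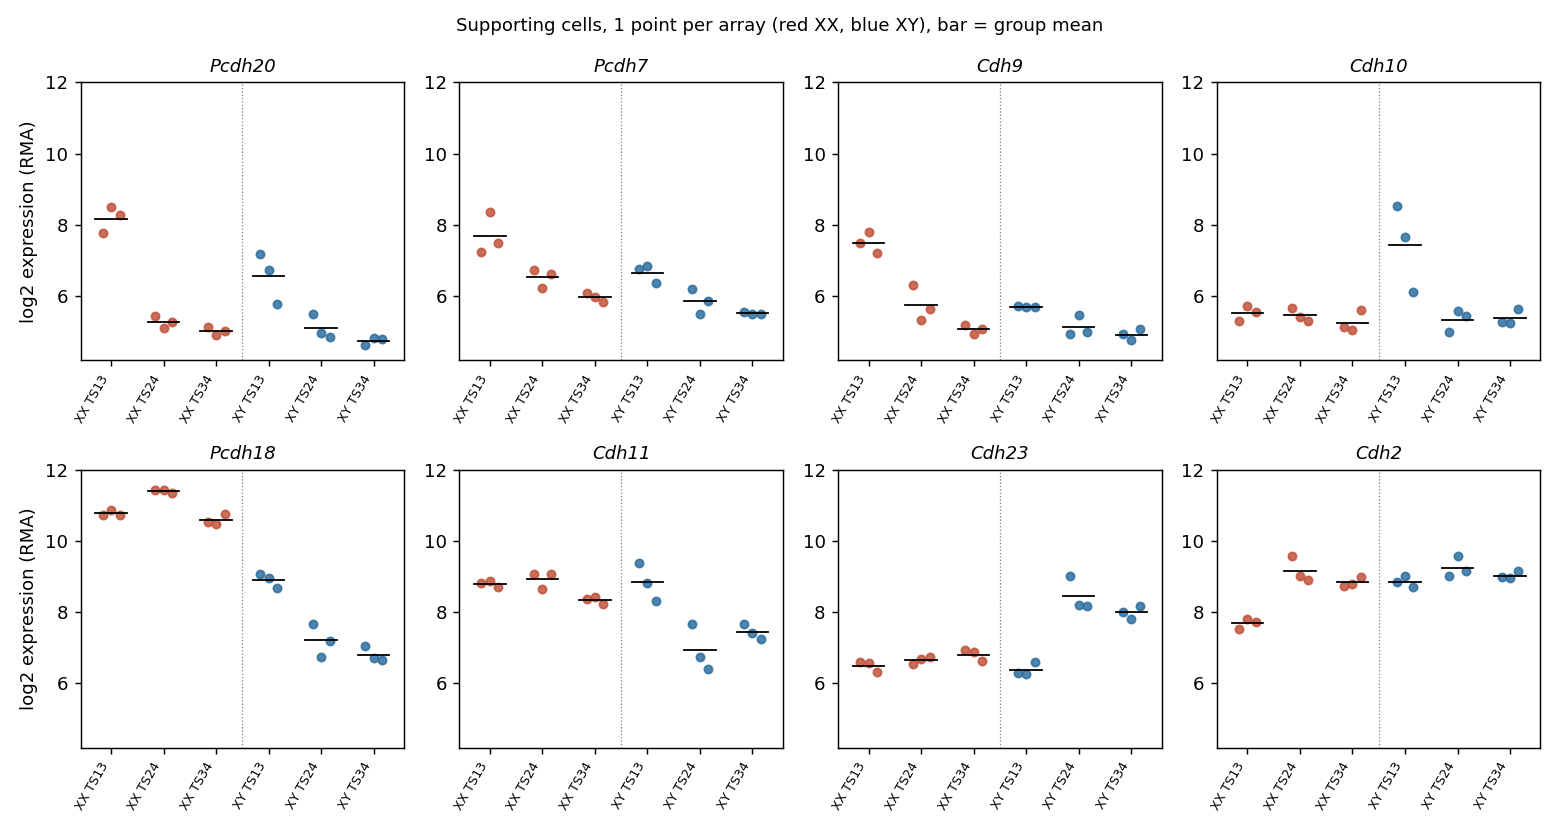
log2 expression of 8 genes in supporting cells, 1 point per array (red XX, blue XY; bars are group means), on 1 common axis. Pcdh20, Pcdh7 and Cdh9 are highest in XX at TS13, Cdh10 is high in XY at TS13 alone (6.12 to 8.53), and Pcdh18, Cdh11 and Cdh23 separate the sexes at TS24 and TS34.

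Pcdh18, a delta protocadherin, had the widest range of group means of all 34 genes. In XX supporting cells it stood at 10.73, 10.88 and 10.72 at TS13, at 11.43, 11.43 and 11.34 at TS24 and at 10.54, 10.46 and 10.75 at TS34. In XY supporting cells it stood at 9.07, 8.98 and 8.67, then at 7.68, 6.75 and 7.20, then at 7.06, 6.72 and 6.66. Every XX array lay above every XY array, and XY minus XX was -1.87 ± 0.27 at TS13 (adjusted p = 1.61e-06), -4.19 ± 0.27 at TS24 (18.3-fold, adjusted p = 5.13e-18) and -3.77 ± 0.27 at TS34 (13.7-fold, adjusted p = 2.00e-16). The XY arrays of TS24 and TS34 reached into the range of germ cells, whose arrays were at 5.61 to 8.18. From TS13 to TS24 it fell in XY cells (-1.69 ± 0.27, adjusted p = 4.38e-06), across the change of mouse line.

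Cdh11, a type II cadherin of mesenchyme, was not called between the sexes at TS13, where XX stood at 8.81, 8.87 and 8.70 and XY at 9.38, 8.82 and 8.32 (0.05 ± 0.28, 95% interval -0.52 to 0.62). At TS24 XX stood at 9.08, 8.66 and 9.07 and XY at 7.67, 6.75 and 6.41, a difference of -1.99 ± 0.28 (3.97-fold, adjusted p = 2.15e-07). At TS34 XX stood at 8.37, 8.42 and 8.24 and XY at 7.68, 7.41 and 7.26. There the difference was -0.89 ± 0.28 (adjusted p = 0.0234), and its call was lost at -0.80 to -0.88 without XX replicate 1 or 2 or XY replicate 2 or 3. Neither later stage had overlapping arrays. In XY cells Cdh11 fell from TS13 to TS24 (-1.89 ± 0.28, adjusted p = 1.43e-06).

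Cdh23 rose in XY supporting cells. It stood at 6.29, 6.27 and 6.60 at TS13, at 9.02, 8.20 and 8.17 at TS24 and at 8.02, 7.80 and 8.17 at TS34, while the 9 XX arrays stayed at 6.32 to 6.93. The rise from TS13 to TS24 was 2.08 ± 0.21 (4.22-fold, adjusted p = 1.06e-10), and XY minus XX was 1.80 ± 0.21 at TS24 (adjusted p = 1.54e-09) and 1.18 ± 0.21 at TS34 (adjusted p = 2.14e-05). Cdh3 was higher in XY at both stages too. It stood at 7.98, 8.14 and 8.53 in XX and at 9.68, 9.01 and 9.07 in XY at TS24 (1.04 ± 0.23, adjusted p = 6.96e-04). At TS34 it stood at 7.54, 7.26 and 7.70 in XX and at 8.46, 8.66 and 8.63 in XY (1.09 ± 0.23, adjusted p = 3.91e-04), and the sexes overlapped at neither stage. Pcdh9 was called at TS34 only, at 6.20, 6.15 and 6.24 in XX and 7.01, 7.04 and 6.91 in XY (0.79 ± 0.20, adjusted p = 0.00369). Its other probe set had the same order, at 5.99, 5.82 and 5.73 in XX and 6.69, 6.95 and 6.61 in XY. That probe set separated the sexes at TS24 too, at 6.17, 6.30 and 6.25 in XX and 6.77, 6.65 and 6.76 in XY. In XY at TS13 it was at 6.41, 6.08 and 6.11. It was not tested on its own.

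Of the 8 calls at TS24, those of Cdh12 and Cdh18, both type II cadherins, rested on single arrays. Cdh12 stood at 4.63, 7.53 and 6.28 in XX and at 4.74, 4.63 and 4.72 in XY, which overlap, and -1.45 ± 0.36 (adjusted p = 0.00248) became -0.76 (adjusted p = 0.155) without XX replicate 2 and -2.21 without XX replicate 1. Cdh18 stood at 5.49, 8.96 and 5.07 in XX and at 5.38, 5.21 and 5.46 in XY. Its difference of -1.16 ± 0.41 (adjusted p = 0.0486) turned to 0.07 (adjusted p = 0.94) without XX replicate 2 and was -1.87 without XX replicate 3. A second probe set of Cdh18 read 5.26, 5.88 and 4.99 on the same XX arrays. Without XY replicate 1, 2 or 3 the Cdh18 call was lost (adjusted p of 0.0803 to 0.123), and without XY replicate 3 the number of cadherins called at TS24 was 5.

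From TS13 to TS24 in XY supporting cells, across the change of line, 8 cadherins were called (16.8% of all genes, 15.1% higher and 1.70% lower): Cdh10, Cdh11, Pcdh18, Pcdh20 and Pcdh7 fell and Cdh23, Cdh3 and Cdh5 rose. The arrays of this comparison differ in overall level, with a median difference over all genes of 0.22 as deposited. With median centring the split was 1 higher and 7 lower, and with quantile normalization 1 higher and 6 lower, against 3 higher and 5 lower as deposited; over all genes it was 1425 higher and 712 lower with centring and 1027 and 985 with quantile normalization, against 2658 and 299. The rises of Cdh3 (0.73 ± 0.23, or 0.51 centred and 0.33 quantile-normalized) and Cdh5 (0.70 ± 0.25, or 0.49 and 0.49) lost their calls under both, while that of Cdh23 kept it. Cdh3 also lost its call without XY TS13 replicate 1 or 2 or XY TS24 replicate 1 (adjusted p of 0.0516 to 0.209), and Cdh5 without XY TS13 replicate 1 or 3 or XY TS24 replicate 1 or 3 (0.102 to 0.209). In XX supporting cells, with 1 line throughout, 4 were called over the same step (3.37% of all genes): Pcdh20, Cdh9 and Pcdh7 fell and Cdh2 rose. There the median over all genes was 0.11.

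In supporting cells the change of the sex difference between TS13 and TS34 was called for 7 of 32 cadherins (4.88% of all genes). It was positive for Cdh9 (1.65 ± 0.31), Pcdh20 (1.34 ± 0.34), Cdh23 (1.30 ± 0.30) and Pcdh9 (0.99 ± 0.29), and negative for Pcdh18 (-1.90 ± 0.38), Cdh10 (-1.78 ± 0.41) and Cdh2 (-0.97 ± 0.27). For Cdh9, Pcdh20, Cdh10 and Cdh2 the difference was called at TS13 and not at TS34, and for Cdh23 and Pcdh9 at TS34 and not at TS13. The call of Pcdh20 was lost without XY TS13 replicate 3 (0.95, adjusted p = 0.0992). Those of Cdh2 (-0.89 to -0.93, adjusted p of 0.0542 to 0.0726) and Pcdh9 (0.87 to 1.01, adjusted p of 0.0529 to 0.122) were lost without 1 of several supporting arrays of TS13 or TS34.

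**Figure D4:**
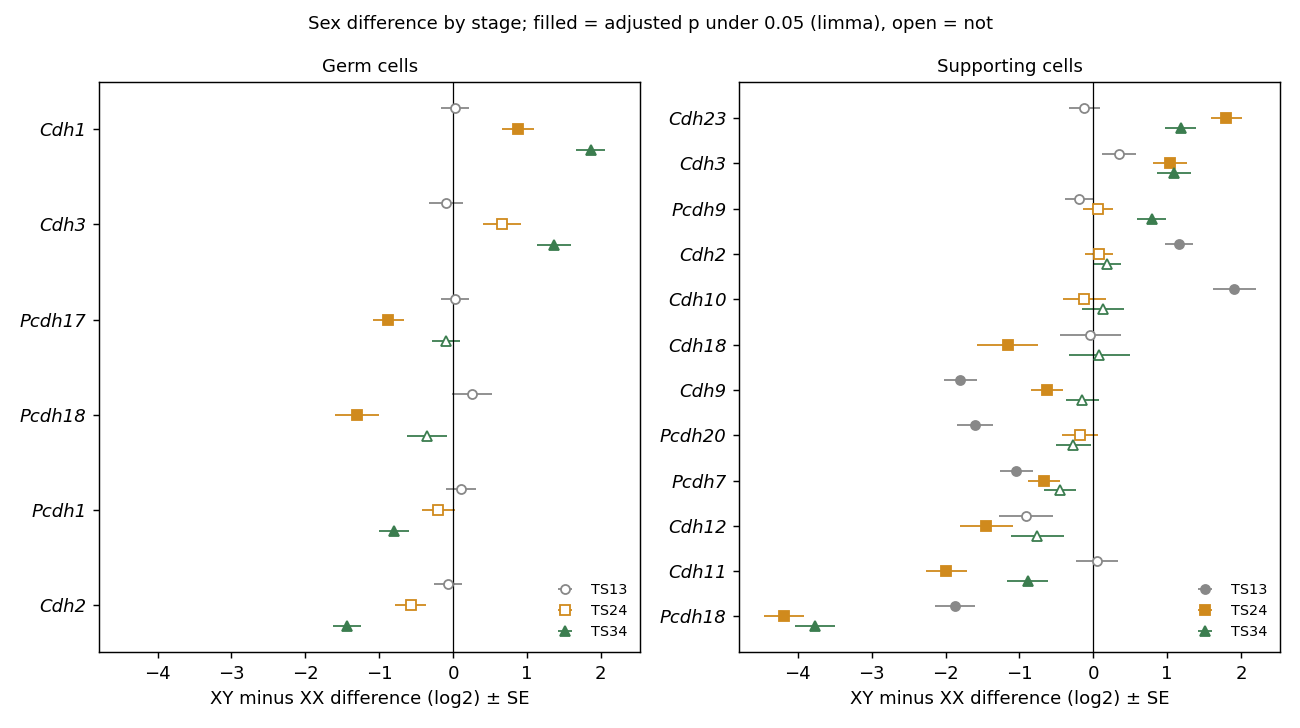
XY minus XX differences (log2, points) ± SE at TS13, TS24 and TS34 for each gene called between the sexes in germ cells (left) or supporting cells (right); filled symbols have an adjusted p under 0.05. In germ cells all symbols at TS13 are open, and in supporting cells Pcdh18 lies at -1.87, -4.19 and -3.77.

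Relatives and partners of the cadherins separated the sexes of supporting cells as well. Fat1, an atypical cadherin of actin regulation, stood at 7.88, 7.85 and 7.72 in XX and at 9.20, 9.62 and 9.55 in XY at TS13. At TS24 it stood at 7.97, 7.51 and 7.74 in XX and at 10.85, 10.53 and 11.16 in XY. At TS34 the difference was 2.57 ± 0.20, after 1.64 ± 0.20 at TS13 and 3.11 ± 0.20 at TS24, and no arrays of the sexes overlapped. Fat4, an atypical cadherin of planar polarity, was lower in XY, at -1.43 ± 0.24, -2.80 ± 0.24 and -1.82 ± 0.24 at the 3 stages in order. The desmosomal cadherin Dsc2 was lower in XY as well, at -0.96 ± 0.23, -2.09 ± 0.23 and -1.65 ± 0.23. Pcdh11x, with means given above, was also called lower in XY at each stage. Of the 22 tested desmosomal and atypical cadherins, 1 was higher and 3 lower in XY at TS13, 2 and 4 at TS24, and 2 and 6 at TS34.

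Of the 20 catenins and junction partners, 0 were higher and 2 lower in XY supporting cells at TS13 (Pkp2 and Ctnna3), 6 higher and 0 lower at TS24, and 5 higher and 0 lower at TS34. Ctnna2, the alpha-catenin of neurons, was at 5.44, 5.41 and 5.54 in XX and at 7.87, 7.83 and 8.24 in XY at TS34, a difference of 2.51 ± 0.20. Ctnna3, the alpha-catenin of heart and testis, was lower in XY at TS13 (-0.82 ± 0.21) and higher at TS24 (1.15 ± 0.21) and TS34 (1.85 ± 0.21). The change of its sex difference from TS13 to TS34 was 2.66 ± 0.30 (adjusted p = 4.69e-09).

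Markers from the lists of other cell types also differed between XY and XX supporting cells at TS24 and TS34, where the lines differed. Of 3 Schwann and neural crest markers on the array, Sox10 and Erbb3 were higher in XY at both stages (Erbb3 by 3.10 ± 0.22 and 3.25 ± 0.22), with a summed level of 9.64 to 10.20 in XY against 7.93 to 8.32 in XX at TS24. Of 3 erythroid markers, Alas2 (0.70 ± 0.20) and Hba-x (1.05 ± 0.29) were higher in XY at TS24 and Alas2 (0.75 ± 0.20) at TS34, with a summed level at TS24 of 9.93 to 11.92 in XY against 8.29 to 11.07 in XX. Of 8 mesonephric markers, Emx2 was lower in XY at TS24 (-3.15 ± 0.22) and TS34 (-2.58 ± 0.22). Of the 4 steroidogenic markers on the array, Star was higher in XY at TS24. All 4 were higher in XY at TS34, with a summed level of 9.05 to 9.37 against 7.74 to 7.79. Of 6 interstitial markers, Nr2f2 was lower and Pdgfra higher at TS24, and limma called 0 at TS34 (3 at an unadjusted p under 0.05). Of 4 surface epithelium markers, Lhx9 alone was called, lower in XY at TS24 (-4.08 ± 0.26) and TS34 (-3.67 ± 0.26). Lhx9 and Emx2 were high in the XX supporting groups themselves at every stage. Lhx9 had means of 10.12 to 11.19 there and 6.23 to 7.20 in germ cells, and Emx2 had means of 8.44 to 8.86 and 5.12 to 5.75. Of 9 endothelial markers, limma called 0 between the sexes of supporting cells at any stage (0 also at an unadjusted p under 0.05). The part of other cells or of the line in the cadherin differences was not tested.

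The other 16 tested genes were called in none of the 17 comparisons: 11 Cdh and 5 Pcdh genes. Among them were Cdh4 (R-cadherin), Cdh13 (the membrane-anchored T-cadherin), Cdh15 (the muscle M-cadherin), Cdh16 (the kidney cadherin), Pcdh12 (an endothelial protocadherin) and Pcdh15, the tip-link partner of Cdh23. The range between their lowest and highest group mean was 0.28 to 0.79 (median 0.44), and all their group means lay between 5.21 and 7.50. With a median SE of 0.211 for a difference of 3 against 3 arrays, the smaller of these ranges are near the error of a difference. The ranges span 12 groups, and single differences of 0.63 to 0.79 were called for other members within cell types. Near the array's background the log2 differences are smaller than the true ones, so a gene without a call was not shown to be absent or unchanged. Family members side by side on a chromosome did not have to move together: Cdh8, Cdh11 and Cdh5 follow each other on chromosome 8, and Cdh8 was called in no comparison, Cdh11 in 4 and Cdh5 in 2.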

How the data were processed

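The authors deposited log2 expression for 35557 probe sets on 36 arrays. RMA, which corrects background and combines the probes of each set, made these values, per the submitters' processing notes. For its version and software, the sources used here give nothing. Array medians ran from 6.412 to 6.841, so the values did not share 1 distribution and were used as deposited. For arrays, their number limits the precision.

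By the platform annotation, 21789 probe sets had 1 symbol, 1621 several and 12147 none listed. RefSeq GRCm38.p6, matched on the Entrez identifier, gave the current symbol for 21698, and 91 kept the annotation's symbol. Each gene was read from its probe set of highest mean, and 4 members had 2 probe sets. A further 3 probe sets of several symbols held a matching symbol and were not used. Genes over the 25th percentile of their array on at least 3 arrays were tested (17571 kept, 2367 removed).

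A means model of 12 groups and no covariates was fitted to 35 arrays (limma 3.58.1, R 4.3.3), with 23 residual and 25.96 prior degrees of freedom and Benjamini-Hochberg adjustment over all genes tested (two-sided, threshold 0.05). Every adjusted p comes from limma. The 17 comparisons were germ minus supporting cells, XY minus XX in each cell type at each stage, successive stages within cell type and sex (later minus earlier), and the change of the sex difference between TS13 and TS34. Comparisons share arrays. The fit was tested on simulated data. A summed marker level is the log2 of the sum of a list's linear values on an array.

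Values by array are given for members called with a difference of at least 1 between cell types, or called in any other comparison, fewer where these exceed 15, and the rest by counts and ranges. Members and lists were chosen with earlier results of these data known. Alternatives were quantile normalization, median centring, no filter, a filter at the 50th percentile, the mean over probe sets, a variance trend, a replicate block, all 36 arrays, and leaving out each array. The interstitial and stromal samples were not analysed here.

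The upstream sequences come from RefSeq's promoter table. No entry was found there for Cdh1, Cdh2, Cdh3, Cdh4, Cdh5, Cdh11, Cdh13, Cdh16, Cdh17, Cdh19, Pcdh1 and Pcdh12.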

Additional observations from a re-analysis of the deposited data

Results flagged for a closer look

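The sex difference of 3 cadherins in germ cells was not the same at TS34 as at TS13, by limma's test of the difference itself. The TS34 value of XY minus XX less its TS13 value was 1.83 for Cdh1, from 0.02 to 1.86, and 1.46 for Cdh3, from -0.09 to 1.37. It was -1.36 for Cdh2, from -0.07 to -1.44.

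In supporting cells the same test singled out 7 genes. The value was 1.65 for Cdh9, 1.34 for Pcdh20, 1.30 for Cdh23 and 0.99 for Pcdh9. It was -1.90 for Pcdh18, -1.78 for Cdh10 and -0.97 for Cdh2. The mouse line of XY supporting cells changed between these stages, so stage and line cannot be told apart in these 7 values.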

How the results depend on the processing

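Precision is limited by groups of 2 or 3 arrays and by low signal near background. Of 535 values of named genes under 8 alternative settings, 504 kept their direction and call, 31 kept their direction but lost the call and 0 changed direction; 21 of the 31 fell under keeping all 36 arrays, 4 under quantile normalization and 3 under median centring. With all 36 arrays, 5 members were called in XY minus XX supporting cells at TS24 (8 without the library), 2 in TS24 minus TS13 of XX germ cells (1 without), 0 in that of XY germ cells (1 without), 5 in that of XY supporting cells (8 without), and 2 for the change of the supporting sex difference between TS13 and TS34 (7 without). In comparisons that do not use germ XX TS24, keeping the library moved the p-values and not the differences. In the fit all groups share 1 estimate of each gene's spread, and the library enters that estimate. XY minus XX of Pcdh18 in supporting cells at TS13 was -1.87 with or without it, with an adjusted p of 0.114 with it. The rise of Cdh1 in XY germ cells from TS13 to TS24 was 0.72 with or without it, with an adjusted p of 0.55 with it. With the mean over probe sets, 2 were called in TS24 minus TS13 of XX germ cells. Why the number differs under that setting was not tested.

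Leaving out 1 array in turn, 782 of 866 values kept direction and call, 83 lost the call and 1 changed direction: Cdh18 in XY minus XX supporting cells at TS24, which ran from -1.87 without XX replicate 3 to 0.07 without XX replicate 2. The number of members called then ranged from 0 to 1 in TS24 minus TS13 of XX germ cells, from 0 to 0 in that of XY germ cells, from 1 to 8 in TS34 minus TS24 of XX germ cells, from 0 to 1 in that of XX supporting cells, from 0 to 3 in XY minus XX germ cells at TS24 and from 5 to 6 in supporting cells at TS24.

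Same-numbered replicates did not deviate together (r of -0.508 to 0.13 over 39 pairs, 1 over 0.1), so the numbers do not pair the samples. With the replicate block, Cdh9 in XY minus XX supporting cells at TS24 missed the threshold at -0.63 (adjusted p = 0.0523), and no other named call was lost. Centring removes a median shift over all genes of 0.22 (TS24 minus TS13, XY supporting), 0.11 (the same step, XX supporting), -0.15 (TS34 minus TS24, XX germ), -0.13 (XX supporting) and -0.17 (XY supporting).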

Other observations

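Replicate 3 of germ XX TS24, the library that went against its label and entered no comparison, had its own cadherin values. Pcdh18 was at 11.94 on it and Cdh11 at 11.48, both above every other array of the series, where the highest were 11.43 and 9.38. Cdh1 was at 6.06, within the range of supporting cells, and Cdh2 at 8.29. Cdh10 was at 7.09, Cdh12 at 7.17, Pcdh7 at 7.62, Pcdh9 at 7.37 and Cdh5 at 7.67. Of the 6 interstitial markers on the array, 6 were above the array's median on it, and their summed level was 12.73, where the other 35 arrays were at 9.15 to 10.83.

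Cdh12 was uneven among XX supporting arrays of 1 group: 7.17, 5.78 and 5.22 at TS13 and 4.63, 7.53 and 6.28 at TS24, against 4.58 to 5.52 over the 9 XY supporting arrays. Cdh18 was at 8.96 on XX supporting TS24 replicate 2, the array where Cdh12 was at 7.53, and at most 6.20 on the other 34 arrays compared.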
